A study of Mus musculus with 60 samples.

Results

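WT-cKO organoids from mouse duodenum, the first stretch of the small intestine, were treated with 1 uM 4-OHT or with DMSO, the solvent control, and harvested at 48 h. The values described are those of the column block of the authors' deposited table whose header names WT-cKO, 48 h and 4-OHT against DMSO, and every gene with a value in it was kept, 24905 of 41018 listed genes. The labels give 3 replicates for DMSO and 3 for 4-OHT at this time, out of 60 samples in 20 groups. Comparison groups used here were WT-cKO organoids with DMSO or 1 uM 4-OHT for 24 h. CDK2-cKO organoids, the conditional knockout line for the kinase CDK2, were used with DMSO or 1 uM 4-OHT for 48 h. Correlations also used CDK2-cKO organoids with DMSO or 1 uM 4-OHT for 24 h. They also used WT-dTAG organoids with DMSO for 6 h or 24 h or with 250 nM dTAG-13 for 24 h. Each of these groups again had 3 labelled replicates. All these were wild-type or conditional knockout organoids grown in Matrigel with IntestiCult medium, and their labels name no further allele. The limit on the standard error defined below also drew on CDK2-dTAG and CDK5-dTAG organoids. These had DMSO or 250 nM dTAG-13 for 6 h or 24 h. That limit drew on WT-dTAG organoids with 250 nM dTAG-13 for 6 h as well. These further groups also had 3 labelled replicates each. The labels do not say whether WT-cKO organoids carry a tamoxifen-dependent Cre recombinase, whether the mice were of one sex or age, or whether replicates were separate cultures, so a p-value measures only the spread between these samples, which may be technical. The table holds the authors' own comparisons, with no value per sample, so the depth behind each value and the spread of single samples are unknown.

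4-OHT, 4-hydroxytamoxifen, is the active metabolite of tamoxifen. It binds the estrogen receptor and is widely used to switch on Cre recombinases fused to a mutated receptor, and WT-cKO organoids are the wild-type counterpart of the CDK2-cKO line under the same compound. Duodenal organoids hold the cell types of the crypt and villus: dividing stem and progenitor cells, secretory goblet, Paneth, enteroendocrine and tuft cells, and absorptive enterocytes. Enterocytes carry digestive hydrolases on their brush border, take up sugars, peptides and lipids, and express cytochrome P450 and conjugating enzymes that modify foreign compounds.

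The labelled tissue was checked against marker genes. All 15 genes of epithelial identity were well measured, with a median log2 fold change of -0.06 in the authors' deposited table. Well measured means that the standard error, worked back for each gene from its deposited fold change and p-value, had a median of at most 1 over the 11 comparisons that share no library with the 48 h WT-cKO groups, which left 11770 genes. The epithelial adhesion molecule Epcam stood at 0.00 with an implied standard error of 0.12, and Cdh1, Krt8, Vil1 and Cdh17 lay between -0.12 and -0.01 in the authors' deposited table. Of markers of other tissues, 1 of 14 fibroblast genes (Vim), 1 of 18 immune genes (Csf1r), 3 of 16 endothelial and neural genes and 4 of 18 gastric and pancreatic genes were well measured. Of the defining markers, Col1a1, Dcn, Pdgfra, Ptprc, Cd3e, Cdh5 and Kdr had implied standard errors of at least 1.75. These data give no usable fold change for them. The endothelial marker Pecam1 was well measured and stood at -0.66, with an implied standard error of 0.34. The other 2 well measured endothelial and neural genes stood above 0. In whole organoids, fewer cells of a type and less RNA per cell cannot be told apart.

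No gene passed the test over all genes. In the authors' deposited table FDR p started at 0.935 and the Bonferroni p was 1 for all 24905 genes, so 0.0% were called at FDR p under 0.05. At an unadjusted p under 0.05 there were 186 genes higher under 4-OHT (0.747% of those tested) and 269 lower (1.08%), 455 in all against 1245 if every p were uniform. Among the 11770 well measured genes, 144 were higher (1.22%) and 246 lower (2.09%). The median log2 fold change of well measured genes was -0.01 and the median implied standard error 0.28, at which a log2 fold change of 0.55 reaches an unadjusted p of 0.05. Since no gene passed, every fold change of this comparison below is a description, not a call.

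**Figure D1:**
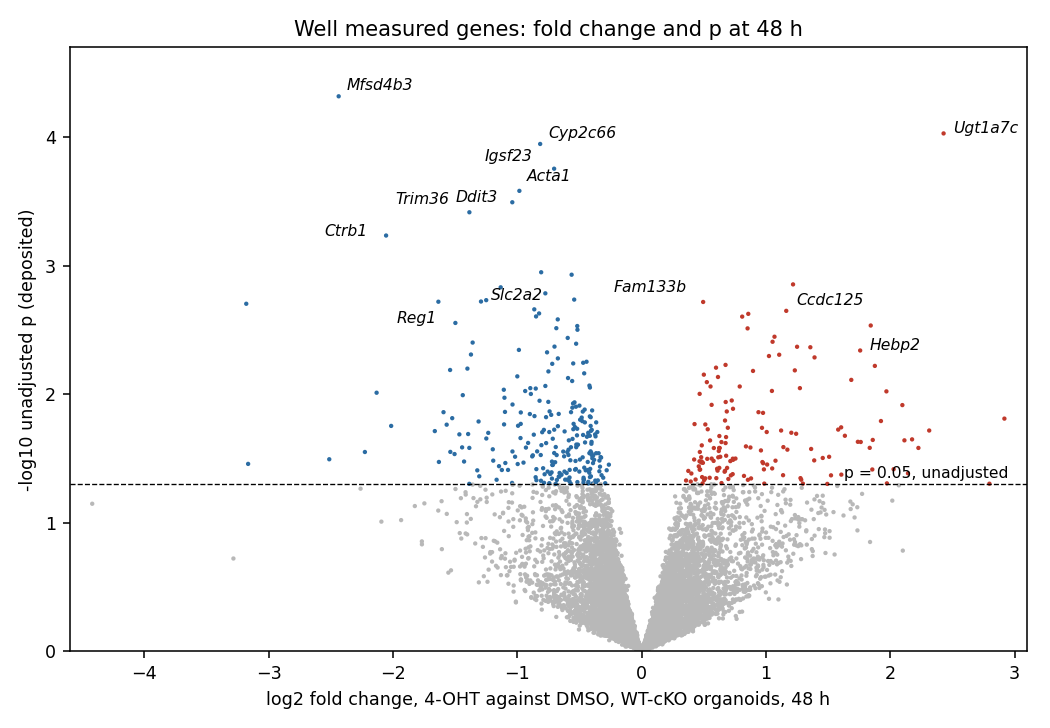
Each point is 1 of the 11770 well measured genes, with the deposited log2 fold change of 4-OHT against DMSO in WT-cKO organoids at 48 h on the x axis and -log10 of the unadjusted p on the y axis. The dashed line marks an unadjusted p of 0.05, above which 246 lower genes (blue) and 144 higher genes (red) lie; Mfsd4b3 at -2.44 and Ugt1a7c at 2.43 stand farthest up on either side, and neither passes the FDR.

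Genes for the handling of foreign compounds lay mostly below 0. Of 25 well measured xenobiotic receptors and phase I enzymes, which oxidise or hydrolyse drugs and dietary compounds, 24 stood below 0, with a median log2 fold change of -0.46 in the authors' deposited table; over all well measured genes 6051 of 11770 (51.4%) stood below 0. At an unadjusted p under 0.05, 9 of the 25 were lower and 0 higher, against 2.09% and 1.22% of all well measured genes. All lists were chosen with earlier results of these data known, so a list's counts beside those of all genes are no independent support. Cyp2c66, a cytochrome P450 of the intestine, was listed at -0.82 (95% interval -1.23 to -0.40, p = 0.000113, FDR p = 0.935) in the authors' deposited table, a fold of 0.568. Its relatives Cyp2c55 and Cyp2c65 were listed at -0.52 (interval -0.86 to -0.17) and -0.46 (interval -0.80 to -0.13). The reads of such close paralogs may be split between them, so their values are not fully independent. Cyp2b10, a classic target of the receptor CAR, stood at -1.23 and Cyp3a25 at -0.88 in the authors' deposited table, each with an unadjusted p under 0.05 and FDR p = 0.997.

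The 3 Cyp2c genes are neighbours on chromosome 19 with 0 protein-coding genes between Cyp2c55 and Cyp2c65 and 0 between Cyp2c65 and Cyp2c66. Their sequences are shown because these genes had the same sign and similar sizes in both organoid lines at 48 h; Alpi, a brush border gene described with the absorptive genes, is added for comparison. RefSeq's promoter table on GRCm38.p6 gives the 250 bases before each gene's start at chr19:39006769-39007018, chr19:39060756-39061005 and chr19:39113648-39113897 on the plus strand, and for Alpi at chr1:87101607-87101856 on the minus strand. Capitals mark, on either strand, the letters TATAAA, the core of a TATA box, and CAAAGTCCA, CAAAGGTCA or CAAAGTTCA, letters found in sites that HNF4 nuclear receptors bind.
Cyp2c55: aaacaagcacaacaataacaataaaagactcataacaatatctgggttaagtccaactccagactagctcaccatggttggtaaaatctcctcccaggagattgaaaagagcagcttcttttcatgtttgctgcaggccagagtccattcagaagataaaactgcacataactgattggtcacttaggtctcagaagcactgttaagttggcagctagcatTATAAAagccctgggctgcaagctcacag
Cyp2c65: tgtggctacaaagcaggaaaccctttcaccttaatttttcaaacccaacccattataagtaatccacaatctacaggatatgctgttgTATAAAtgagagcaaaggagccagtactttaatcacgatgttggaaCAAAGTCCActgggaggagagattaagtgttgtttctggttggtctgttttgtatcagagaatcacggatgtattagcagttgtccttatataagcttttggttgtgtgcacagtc
Cyp2c66: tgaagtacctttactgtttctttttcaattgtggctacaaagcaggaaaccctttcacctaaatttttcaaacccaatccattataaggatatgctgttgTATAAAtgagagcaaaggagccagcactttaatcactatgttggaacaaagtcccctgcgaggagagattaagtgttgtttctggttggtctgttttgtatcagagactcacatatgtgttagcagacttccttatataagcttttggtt
Alpi: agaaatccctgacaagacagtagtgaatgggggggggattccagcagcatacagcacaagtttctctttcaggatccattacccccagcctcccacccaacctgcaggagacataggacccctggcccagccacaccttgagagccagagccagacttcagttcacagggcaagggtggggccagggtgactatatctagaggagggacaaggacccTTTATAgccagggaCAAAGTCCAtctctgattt
Cyp2c55 carries TATAAA with its first base 29 bases before the start. In Cyp2c65 and Cyp2c66 the marked TATAAA lies much farther away, at 162 and 150 bases before the start, so it is not named as their TATA box. In Alpi the TATAAA match is on the opposite strand, at 33 bases. Alpi also carries CAAAGTCCA, with its first base 19 bases before the start. Cyp2c65 carries CAAAGTCCA 116 bases before the start. The aligned 9 bases of Cyp2c66 differ from it by A9C, counted from 1 at the first base of CAAAGTCCA with the base of Cyp2c65 first. The upstream windows of Cyp2c65 and Cyp2c66 were 74.5% identical in a global alignment, and those of Cyp2c55 54.9% and 51.9% identical to them. At least 1 of the 3 HNF4-type letter strings was present in 355 of 27025 genes with a promoter entry (1.31%), in 110 of 8931 well measured genes (1.23%), in 6 of 192 lower genes (3.12%) and in 2 of 108 higher genes (1.85%) at an unadjusted p under 0.05. Among well measured genes of the enterocyte and xenobiotic lists it was present in 11 of 176 (6.25%). TATAAA was present in 14.3% of all genes with an entry, in 8.14% of well measured genes, in 13.5% of the lower and 6.48% of the higher ones, and in 20.5% of those on the enterocyte and xenobiotic lists. A match is a description of letters, not a site, and no test was made on these shares.

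The conjugating and redox enzymes lay on the same side. Of 26 well measured phase II enzymes, which attach glutathione, sulfate or glucuronic acid, 23 stood below 0, with a median of -0.40 in the authors' deposited table. The glutathione transferase Gstm3 was listed at -0.85 (interval -1.40 to -0.30), the sulfotransferase Sult1b1 at -0.77 and the glucuronosyltransferase Ugt2b34 at -0.47 in the authors' deposited table. Against them stood Ugt1a7c at 2.43 (interval 1.21 to 3.65, p = 9.33e-05, FDR p = 0.935), the higher gene with the smallest p among those with a symbol in the authors' deposited table. Ugt1a genes share their last exons, so 3′ tags may not separate them, and the value of Ugt1a7c is uncertain for that reason. Of 23 alcohol, aldehyde and retinoid enzymes, 21 stood below 0 with a median of -0.39 in the authors' deposited table, among them the monoamine oxidase Maoa at -0.59 (interval -0.99 to -0.19), the alcohol dehydrogenase Adh1 at -0.86, the retinal dehydrogenase Aldh1a1 at -0.91 and the histamine-degrading amine oxidase Aoc1 at -0.71. NRF2 and glutathione genes, the antioxidant response, had 13 of 18 below 0 and a median of -0.18, with 0 members at an unadjusted p under 0.05.

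Genes of absorptive enterocytes also lay below 0. All 21 well measured genes of lipid uptake and chylomicron assembly did so, with a median of -0.33 in the authors' deposited table. The fatty acid binding protein Fabp1 was listed at -0.97 (interval -1.81 to -0.14) and the transcription factor Creb3l3, a regulator of lipoprotein genes, at -0.84 in the authors' deposited table. Of 15 brush border hydrolases 14 stood below 0, with a median of -0.43. The intestinal alkaline phosphatase Alpi was listed at -0.90 (interval -1.57 to -0.22), sucrase-isomaltase Sis at -0.89 (interval -1.57 to -0.21), trehalase Treh at -1.04 and lactase Lct at -1.26 (interval -2.54 to 0.03) in the authors' deposited table. Of 9 genes of sugar transport and fructose metabolism 8 stood below 0, with a median of -0.67, and the glucose transporter Slc2a2 was listed at -1.29 (interval -2.11 to -0.48, p = 0.00190, FDR p = 0.997) by the authors' deposited table. The fructose enzyme Tkfc lay beside it at -0.57. At an unadjusted p under 0.05, 2 of the 21 lipid, 4 of the 15 brush border and 3 of the 9 sugar genes were lower and 0 higher. Of all well measured genes, 51.4% stood below 0, and 2.09% were lower and 1.22% higher at that p.

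The other absorptive and metabolic lists were closer to 0. Amino acid and peptide transport had 9 of 11 below 0 with a median of -0.26 and sterol and bile acid transport 7 of 10 with -0.28. Villus tip and adenosine genes had 6 of 10 below 0 with a median of -0.16, which became 0.12 when only genes with an implied standard error of at most 0.5 were kept. Fatty acid oxidation and PPAR targets had 18 of 25 below 0 with a median of -0.16, among them the peroxisomal oxidase Acox2 at -0.77 (interval -1.26 to -0.29) in the authors' deposited table. Absorptive cell transcription factors had 12 of 20 below 0 and a median of -0.04, with Hnf4g at -0.40 and no member at an unadjusted p under 0.05. Iron handling genes had 14 of 18 below 0, and the iron importer Slc11a2 was listed at -0.90, the ferritin chain Fth1 at -0.55 and the metallothionein Mt2 at -0.42 in the authors' deposited table. The 36 nuclear-encoded respiratory chain genes had a median of -0.12, with 34 below 0 and 0 at an unadjusted p under 0.05.

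**Figure D2:**
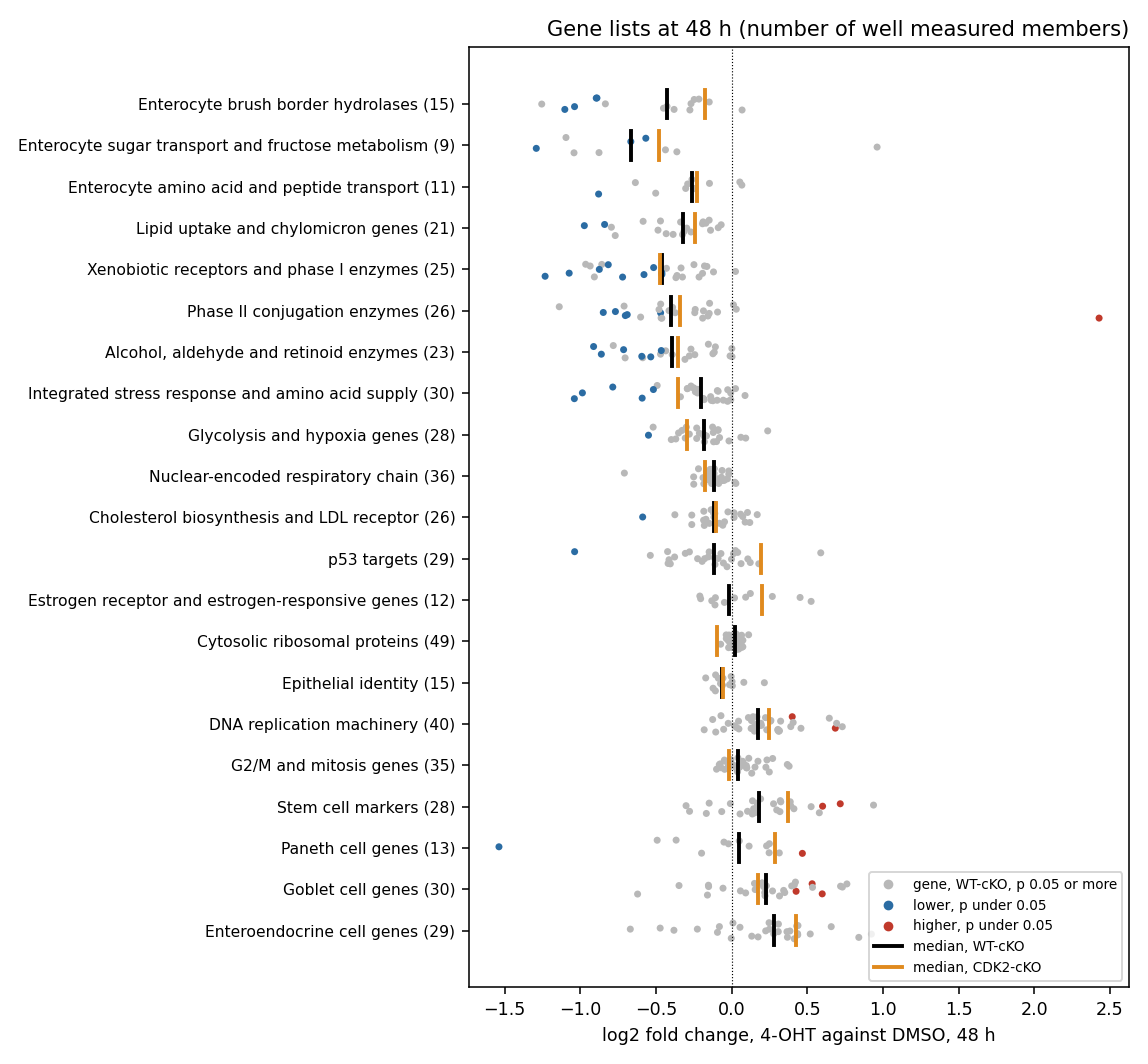
Points are well measured members of 21 gene lists, placed by the deposited log2 fold change of 4-OHT against DMSO in WT-cKO organoids at 48 h, in blue or red at an unadjusted p under 0.05; black bars are list medians in WT-cKO and orange bars the medians of the same genes in CDK2-cKO organoids. The absorptive and xenobiotic lists plotted at the top have black bars between -0.67 and -0.26, while enteroendocrine, goblet, stem and replication lists have bars between 0.18 and 0.28.

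Genes of the integrated stress response and of glycolysis and hypoxia lay mostly below 0. Of 30 genes of the integrated stress response and amino acid supply, the programme run by the factor ATF4, 28 stood below 0 with a median of -0.21 in the authors' deposited table. Over all well measured genes 51.4% stood below 0. At an unadjusted p under 0.05, 5 of the 30 were lower and 0 higher, against 2.09% and 1.22% of all well measured genes. Ddit3, which encodes CHOP, was listed at -1.04 (interval -1.61 to -0.47, p = 0.000320, FDR p = 0.997) in the authors' deposited table. Trib3, the pseudokinase that CHOP and ATF4 induce, was listed at -0.59 (interval -1.03 to -0.16), the transcription factors Cebpb and Atf3 at -0.99 and -0.79, and the tryptophanyl-tRNA synthetase Wars at -0.52. Glycolysis and hypoxia genes had 25 of 28 below 0 and a median of -0.18, and Ndrg1, a hypoxia-inducible gene, was listed at -0.55 (interval -0.94 to -0.16) in the authors' deposited table. Endoplasmic reticulum chaperones had a median of -0.11 and heat shock chaperones, 8 of 15 above 0, a median of 0.02. Immediate early and AP-1 genes had 13 of 20 above 0 and a median of 0.11, with Atf3, which is also on that list, as its lowest member.

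Crypt and secretory genes lay above 0 by smaller amounts. DNA replication genes had 34 of 40 above 0 with a median of 0.18 in the authors' deposited table; all well measured genes had 48.6% above 0. The replication factors Cdc45 and Pola1 were listed at 0.69 (interval 0.14 to 1.23) and 0.40, and the origin licensing factor Cdc6, on the E2F list, at 0.81 (interval 0.28 to 1.33, p = 0.00249, FDR p = 0.997), again in the authors' deposited table. The E2F list and the mitosis list each had a median of 0.04. Stem cell markers had 22 of 28 above 0 with a median of 0.18, with the RNA-binding protein Mex3a at 0.72 and the receptor Ephb3 at 0.60, and with Lgr5 at 0.32 and Olfm4 at 0.39 in the authors' deposited table, with intervals across 0 for both Lgr5 and Olfm4. Goblet cell genes had 24 of 30 above 0 and a median of 0.22. The trefoil peptide Tff3 was listed at 0.43 (interval 0.08 to 0.78), the tryptase Tpsg1 at 0.60 (interval 0.17 to 1.03), the mucin glycosyltransferase Galnt12 at 0.53 and the lineage factor Spdef at 0.73, with an interval across 0, in the authors' deposited table. Enteroendocrine genes had 22 of 29 above 0 and a median of 0.28, with 0 at an unadjusted p under 0.05. Paneth cell genes were spread, with 7 of 13 above 0 and a median of 0.05; the lectin Itln1 stood at 0.47 and the defensin Defa26, one of many near-identical copies, at -1.54. Of 24 tuft cell genes 5 were well measured.

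Lists tied to the compound itself had medians between -0.12 and 0.02. Estrogen receptor and estrogen-responsive genes had 6 of 12 well measured members above 0 and a median of -0.01 in the authors' deposited table, and Esr1, the receptor that 4-OHT binds, was not well measured (2.63, interval -2.63 to 7.88). Cholesterol biosynthesis genes, which respond to cationic amphiphilic drugs of this kind, had 18 of 26 below 0 and a median of -0.11, with the isomerase Idi1 at -0.59 as the 1 member at an unadjusted p under 0.05. Fatty acid synthesis genes had 6 of 11 above 0 and a median of 0.02. The p53 targets had a median of -0.12, and Bbc3, the pro-apoptotic gene for PUMA, was listed at -1.04 (interval -1.85 to -0.23) and the CDK inhibitor Cdkn1a at -0.54 in the authors' deposited table. Cytosolic ribosomal proteins had a median of 0.02 and a range of -0.07 to 0.11 over 49 genes, and mitochondrially encoded genes a median of 0.07. The Cdk2 transcript was listed at -0.53 (interval -0.94 to -0.11, p = 0.0125, FDR p = 0.997) and Cdk5 at 0.51 (interval -0.15 to 1.16) in the authors' deposited table. In CDK2-cKO organoids Cdk2 was listed at -0.64, and the difference between the lines was 0.11 (interval -0.49 to 0.72). A 3′ tag may lie outside a deleted exon, so this comparison does not check the deletion.

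The remaining genes with the smallest p belonged to no single list. On the lower side Mfsd4b3, of the major facilitator transporters, was listed at -2.44 (interval -3.61 to -1.26, p = 4.80e-05, FDR p = 0.935), the immunoglobulin-domain gene Igsf23 at -0.70, the muscle actin Acta1 at -0.98, the ubiquitin ligase Trim36 at -1.39 and the pancreatic protease precursor Ctrb1 at -2.06 in the authors' deposited table. Abhd5, a coactivator of triglyceride lipolysis, stood at -0.81, the manganese exporter Slc30a10 at -1.13, Scoc at -0.56 and the D-glutamate cyclase Dglucy at -0.54. On the higher side the authors' deposited table listed the microtubule minus-end protein Camsap3 at 0.86, the cohesin loader Mau2 at 0.85, the signalling adaptor Sh2b3 at 1.05, the haem-binding protein Hebp2 at 1.76, the RNA methyltransferase Bcdin3d at 1.02 and Zfyve26 at 1.39. Ccdc125 stood at 1.16, Fam133b at 0.50 and the X-inactivation transcript Xist at 0.96. Among the higher ones, 7 predicted genes that have only a model name were left out.

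CDK2-cKO organoids received the same treatment for the same time, and the comparison shares no library with the WT-cKO one, so it shows which values recur. In CDK2-cKO organoids 6 genes passed FDR p under 0.05 (0.0241%). Of the 246 lower genes, 198 (80.5%) also stood below 0 in CDK2-cKO organoids, against 6120 of all 11770 well measured genes. At an unadjusted p under 0.05 in CDK2-cKO organoids, 60 of the 246 were lower (24.4%, and 19.4% of the 309 lower genes there), against 2.63% of all well measured genes, and 1 was higher. Of the 144 higher genes, 94 (65.3%) stood above 0 there, against 48.0%, and 11 were higher at an unadjusted p under 0.05 (7.64%, and 6.18% of the 178 higher genes there), against 1.51%. Across 9508 genes with an implied standard error of at most 0.5, the fold changes of the lines had a Pearson r of 0.30 and a Spearman rho of 0.29, as a description over genes, which are not independent replicates. The r against 4-OHT in WT-cKO organoids at 24 h was 0.14, and against dTAG-13 in WT-dTAG organoids at 24 h it was -0.04. Against 4-OHT in CDK2-cKO organoids at 24 h it was 0.16. Without 4-OHT, DMSO at 24 h against 6 h in WT-dTAG organoids had an r of -0.14, as far from 0 as the 24 h value of WT-cKO organoids. Whether the lines at 48 h were grown, treated or sequenced together is not stated, and the part of a shared batch or culture was not tested.

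Among the 60 shared lower genes, 6 were phase I enzymes, 3 phase II enzymes and 3 alcohol, aldehyde and retinoid enzymes, and 38 were on none of the 51 lists. These lists held 25, 26 and 23 of the 11770 well measured genes, and 9, 5 and 6 of the 246 lower genes. Of the 246, 193 were on no list. The 6 shared phase I genes were Cyp2c66, Cyp2c55, Cyp2c65, Cyp2d26, Cyp4f14 and the carboxylesterase Ces1f. Sis stood at -0.89 in WT-cKO and -0.82 in CDK2-cKO organoids, and Fabp1 at -0.97 and -0.99, in the authors' deposited table. Of the genes lower at an unadjusted p under 0.05 in WT-cKO organoids, 1 of 4 brush border and 0 of 3 sugar genes were among the 60. Of all 246 lower genes 24.4% were, and counts of 4 and 3 genes are too small to be told apart from that share. In CDK2-cKO organoids Slc2a2 stood at -0.48, Alpi at -0.41, Creb3l3 at -0.05 and Treh at 0.03. The brush border list had a median of -0.18 there, with 10 of 15 below 0, and the sugar list one of -0.48, with 8 of 9. The genes on no list included enzymes of several pathways: the malate dehydrogenase Mdh2 at -0.42 and -0.48, the ornithine aminotransferase Oat at -0.40 and -0.38, the transsulfuration enzyme Cth at -0.47 and -0.53, the epoxide hydrolase Ephx2 at -0.43 and -0.42, the lipid droplet enzyme Hsd17b13 at -0.40 and -0.62 and the polyamine acetyltransferase Sat1 at -0.59 and -0.71, in WT-cKO and CDK2-cKO organoids in the authors' deposited table. The lysosomal proteases Ctsb and Ctsc stood at -0.37 and -0.37 in WT-cKO organoids. The 11 shared higher genes were all on no list, as were 132 of the 144 higher genes. Among the 11 were the endoderm transcription factor Foxa2 at 0.61 and 0.55 and the peptidase Dpp7 at 0.90 and 0.97. The telomerase subunit Tert stood at 2.23 and 1.44 and the phospholipase Napepld at 0.67 and 0.78. Tert had a wide interval in WT-cKO organoids (0.26 to 4.19). In DMSO at 48 h against 24 h, which uses the same 48 h DMSO libraries, Tert was listed at -2.45.

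**Figure D3:**
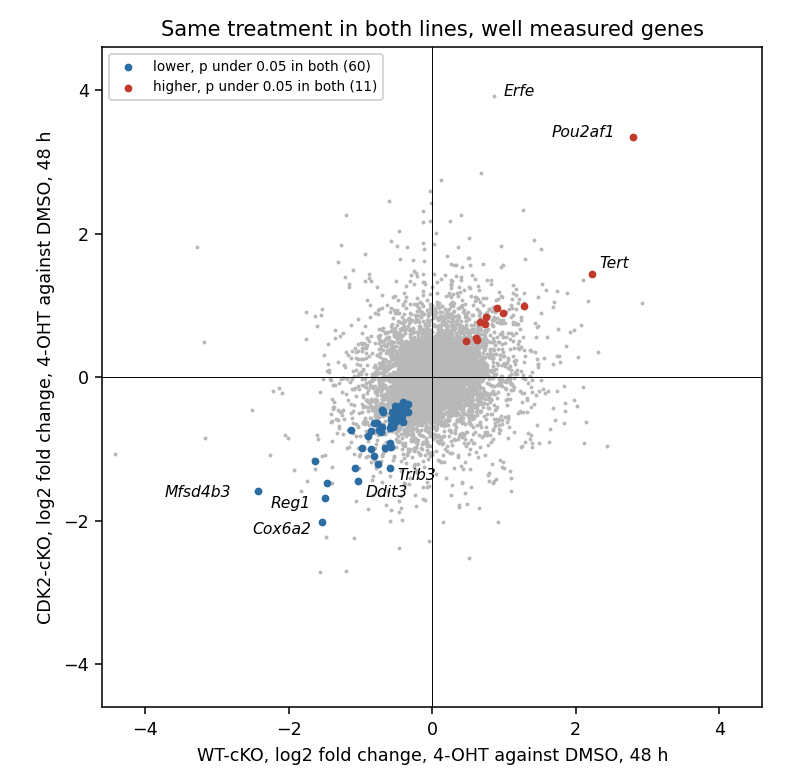
Each point is a well measured gene, with the deposited log2 fold change of 4-OHT against DMSO at 48 h in WT-cKO organoids on the x axis and in CDK2-cKO organoids on the y axis. The 60 genes lower (blue) and 11 genes higher (red) were chosen by an unadjusted p under 0.05 and the same sign in both. Their place at the lower left and upper right follows from that choice. Erfe stands at 0.86 and 3.92.

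A combined estimate of both lines, an inverse-variance mean added after the data were seen, was adjusted over all 24905 genes. It called 10 genes, 9 lower (0.0361%) and 1 higher (0.00402%). All 9 were also lower at an unadjusted p under 0.05 in WT-cKO organoids alone. Those values enter the combined estimate, so this is no separate support. Of the 10, 4 passed FDR p under 0.05 in CDK2-cKO organoids alone (Ddit3, Trib3, Maoa and Erfe). The other 6 passed in neither line alone. From the authors' deposited values Cyp2c66 fell, at a combined log2 fold change of -0.72 (interval -1.02 to -0.43, adjusted p = 0.00824). From the authors' deposited values Mfsd4b3 also fell by 2.00 on the log2 scale (interval -2.83 to -1.18, adjusted p = 0.00991), Cox6a2, the muscle isoform of a cytochrome oxidase subunit, by 1.78 (interval -2.56 to -1.01, adjusted p = 0.0272), and the secreted lectin Reg1 by 1.59 (interval -2.29 to -0.89, adjusted p = 0.0294). Ndrg1 and Igsf23 fell by 0.62 and 0.58, each with an adjusted p of 0.0294. For the stress genes Ddit3 and Trib3 the combined log2 fold changes from the authors' deposited values were -1.25 (adjusted p = 2.29e-05) and -0.93 (adjusted p = 2.56e-05), and for Maoa -0.75 (adjusted p = 0.00145). For Erfe it was 1.98 (interval 1.07 to 2.88, adjusted p = 0.0447 from the authors' deposited values), with 0.86 in WT-cKO and 3.92 in CDK2-cKO organoids. These genes differ in role, from a stress factor (Ddit3) to a drug-metabolising enzyme (Cyp2c66) and a secreted lectin (Reg1).

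The difference between the lines was tested gene by gene. None of 24905 genes was called (0.0%; smallest adjusted p 1.00), and 317 had an unadjusted p under 0.05 (1.27%). For Cyp2c66 the difference, WT-cKO minus CDK2-cKO, was -0.18 (interval -0.77 to 0.40), for Ddit3 0.41 (interval -0.39 to 1.21) and for Reg1 0.18 (interval -1.21 to 1.58), so these intervals leave room for differences in either direction. Trib3 was listed at -0.59 in WT-cKO and -1.27 in CDK2-cKO organoids, a difference of 0.68 (interval 0.07 to 1.29). Erfe, the gene for erythroferrone, a hormone that lowers hepcidin, was listed at 0.86 (interval -0.27 to 2.00) and 3.92, a difference of -3.05 (interval -4.93 to -1.18). Ugt1a7c was listed at 2.43 and -0.95, a difference of 3.38 (interval 1.67 to 5.09). Bbc3 stood at -1.04 and 0.46 and Defa26 at -1.54 and 0.95, and the p53 list had medians of -0.12 in WT-cKO and 0.19 in CDK2-cKO organoids. None of these differences passed over all genes.

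**Figure D4:**
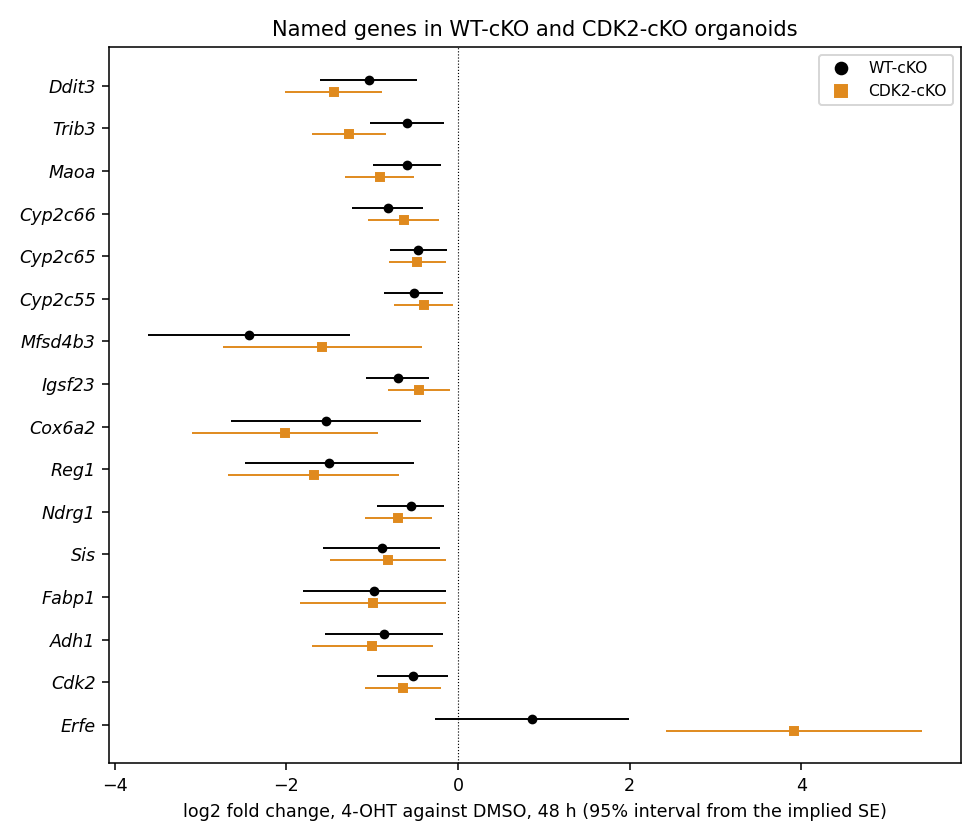
Deposited log2 fold changes of 4-OHT against DMSO at 48 h with 95% intervals from the implied standard errors, for 16 genes in WT-cKO (black circles) and CDK2-cKO organoids (orange squares). For 15 genes both intervals lie below 0. These 15 are among the genes lower at an unadjusted p under 0.05 in both lines. Their intervals had to lie below 0 for that reason and are no separate evidence. Erfe has an interval of -0.27 to 2.00 in WT-cKO organoids.

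The response at 48 h was then set against that at 24 h, which uses other libraries of the same line. The 24 h comparison itself had 644 genes higher at an unadjusted p under 0.05 (2.59% of all tested) and 16 genes at FDR p under 0.05 (0.0642%). The difference of the responses called 0 of 24905 genes (0.0%; smallest adjusted p 1.00), and 438 had an unadjusted p under 0.05 (1.76%). Of the 246 genes lower at 48 h, 168 (68.3%) stood below 0 at 24 h, against 52.7% of all well measured genes. At an unadjusted p under 0.05 at 24 h, 0 of the 246 were lower and 4 higher, against 0.663% and 1.29% of all. These 2 counts are too small to set the 246 apart from those shares. Of the 144 higher genes, 84 (58.3%) stood above 0 at 24 h, against 47.3%, and 10 were higher at an unadjusted p under 0.05 (6.94%, and 6.58% of the 152 there), against 1.29%. Cyp2c66 stood at -0.22 at 24 h and -0.82 at 48 h, a difference of -0.59 (interval -1.18 to -0.01). Ddit3 was listed at 0.19 and -1.04, a difference of -1.23 (interval -2.03 to -0.42), and Trim36 at 0.44 and -1.39, a difference of -1.83 (interval -2.87 to -0.78). Ugt1a7c had the other sign of difference, with -1.02 at 24 h and 2.43 at 48 h, a difference of 3.45 (interval 1.73 to 5.17). At 24 h the phase I list had a median of -0.19 and the brush border list of -0.11, against -0.46 and -0.43 at 48 h.

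Transcripts of spermatids, which do not belong to this tissue, included high values in the 24 h comparison of this line. Only 4 of 30 were well measured, a limit set over 11 comparisons that holds for both times. These 4 had a median of 1.16 at 24 h and 0.20 at 48 h, where the highest stood at 0.37. The high values named next come from genes that were not well measured. Pgk2, a testis phosphoglycerate kinase, stood at 6.48 at 24 h and 2.58 (interval -0.97 to 6.13) at 48 h. The protamine gene Prm3 stood at 4.98 and 2.89 (interval -0.63 to 6.41) in the authors' deposited table. Neither Pgk2 nor Prm3 passed the FDR at 24 h, and neither had an unadjusted p under 0.05 at 48 h.

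The 48 h DMSO group of WT-cKO organoids is the reference of the WT-cKO values at 48 h, and the authors' deposited table also compares it with DMSO at 24 h. That comparison called 0 genes at FDR p under 0.05 (0.0%; smallest FDR p 0.914), and 354 had an unadjusted p under 0.05. Because both comparisons use the 48 h DMSO libraries, a chance deviation of that group enters both with opposite sign, and their values are given side by side only. Alpi was listed at 0.92 in DMSO at 48 h against 24 h and at -0.90 in 4-OHT against DMSO at 48 h. If the deposited log2 fold changes add, which the table does not state, Alpi under 4-OHT at 48 h stood 0.03 above DMSO at 24 h. Ddit3 was listed at 0.86 in DMSO over time and -1.04 under 4-OHT, which places it at -0.19, and Atf3 at 0.95 and -0.79, which places it at 0.16. Cyp2c66 was listed at 0.03 over time and thus stood at -0.78 against DMSO at 24 h, Maoa at -0.54, Sis at -0.79, Adh1 at -0.92, Mfsd4b3 at -2.21 and Slc2a2 at -0.69. On the higher side, Cdc6 was listed at -0.70 in DMSO over time and 0.81 under 4-OHT, which places it at 0.11, and Cdc45 at -0.02, while Tff3 stood at 0.56 and Ugt1a7c at 1.08.

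Medians of gene groups can be placed on the same scale. The 246 lower genes had a median of -0.67 against DMSO at 48 h and of -0.37 against DMSO at 24 h, and the 144 higher genes of 0.83 and 0.35. Against DMSO at 24 h, the brush border list stood at a median of -0.01 in place of -0.43, the replication list at -0.01 in place of 0.18, and glycolysis and hypoxia genes at -0.05 in place of -0.18. The sugar list stood at -0.42, phase I at -0.31, phase II at -0.29, alcohol, aldehyde and retinoid enzymes at -0.40, lipid uptake at -0.21, goblet genes at 0.27 and enteroendocrine genes at 0.43. Paneth cell genes stood at 0.63 in place of 0.05, with 12 of 13 above 0, and mitochondrially encoded genes at -0.17 in place of 0.07. No error can be given for these sums. How much of a difference between 4-OHT and DMSO at 48 h lies in the DMSO group and how much in the 4-OHT group was not tested.

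**Figure D5:**
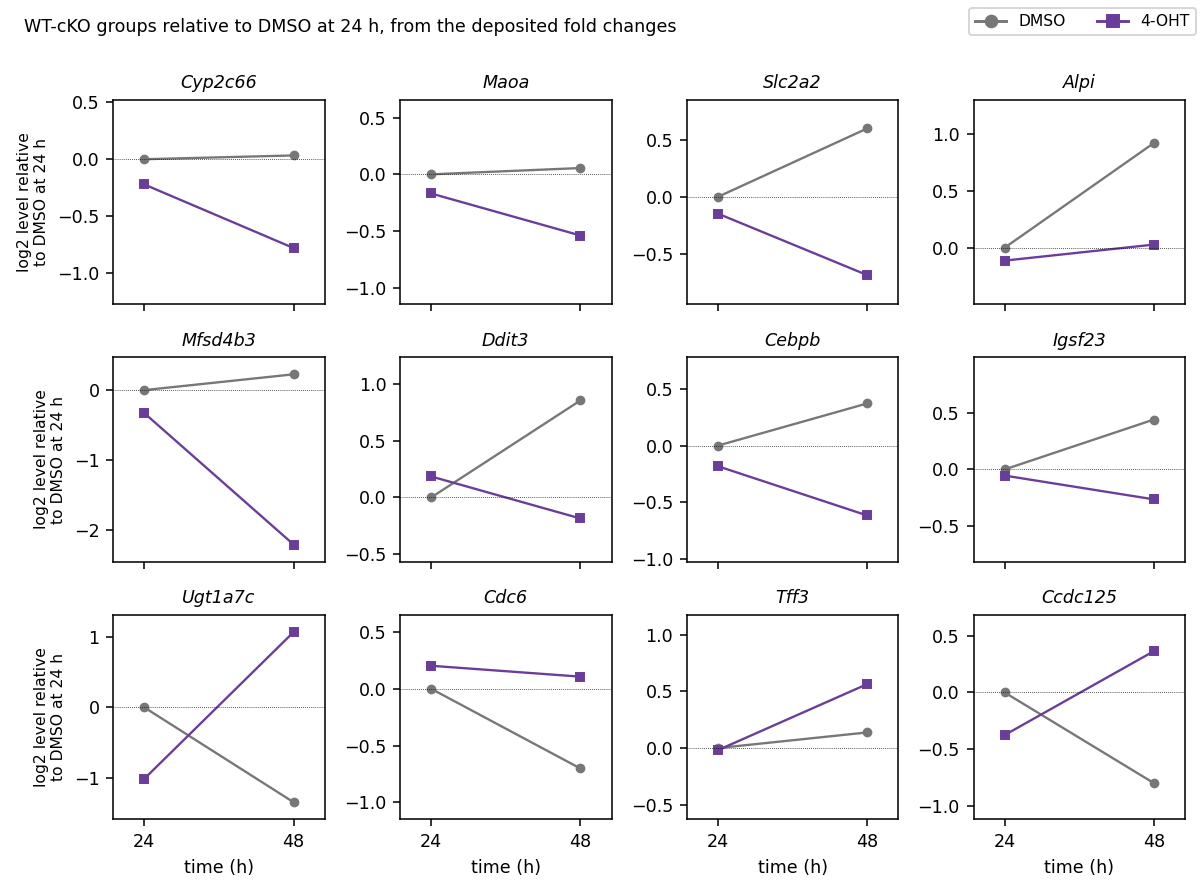
Log2 level of each WT-cKO group relative to DMSO at 24 h for 12 genes, from sums of the deposited log2 fold changes, with time in h on the x axis, DMSO in grey and 4-OHT in purple; each panel has its own y scale and no error is available. Cyp2c66 and Maoa stay near 0 in DMSO and reach -0.78 and -0.54 under 4-OHT at 48 h, whereas Alpi, at 0.92, and Ddit3, at 0.86, are high in DMSO at 48 h.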

How the data were processed

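Libraries were made with a 3′ mRNA-seq kit, QuantSeq forward, per the labels' protocols; Salmon is the tool that the submitters' processing notes name, with no version. The genome build, annotation, normalization, filters and test remain not given in the sources used here. Per the file headers, the authors' deposited table gives each gene, in each of 13 comparisons, a log2 fold change, its linear fold ratio and 3 kinds of p-value (unadjusted, FDR and Bonferroni). Cells without a value hold text, so the columns were recorded under a general (other) unit. No value per sample was used here, and the depth is unknown.

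The authors' p-value and FDR p-value were the main test, called at FDR p under 0.05. The standard error implied by a gene was its absolute log2 fold change divided by the normal deviate that matches its p, which assumes a Wald-type test that no source states; intervals are 95%. Differences of comparisons that share no library, and their inverse-variance mean, were tested two-sided with this error and Benjamini-Hochberg adjustment over 24905 genes, after a check on simulated data. Genes were named by a rule: the 12 with the smallest p in each direction that have a symbol, the 5 with the smallest p on each of 51 lists, cell type markers, and Cdk2, Cdk5 and Esr1. Genes shared between the lines were chosen after their values were seen. Of the list symbols, 6 were not in the table. Some genes that the rule names are not reported here. Members and lists were chosen with earlier results of these data known. Alternatives were a stricter limit or none on the implied error, Bonferroni adjustment, a looser threshold, centring, and a t quantile with 4 degrees of freedom. Python 3.11.15 with scipy 1.17.1 and pandas 2.3.3 was used, and promoter sequences are RefSeq's on GRCm38.p6.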

Additional observations from a re-analysis of the deposited data

How the results depend on the processing

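The count of 0 genes in the 48 h comparison held under Bonferroni adjustment, an FDR p under 0.1 and limits of 1 and 0.5 on the implied standard error; 455 genes had an unadjusted p under 0.05. For the difference between 48 and 24 h, 438 genes at an unadjusted p under 0.05 became 236 and 152 under the limits of 1 and 0.5 and 285 with a t quantile. For the difference between the lines, 317 became 203, 150 and 178. In DMSO over time, 354 became 223 under the limit of 0.5. Fewer genes were tested under each limit. The combined estimate called 10 genes, 5 with Bonferroni adjustment, 20 and 17 under the limits of 1 and 0.5, and 16 at an adjusted p under 0.1. Centring on well measured genes gave 159 higher and 229 lower genes at an unadjusted p under 0.05, in place of 144 and 246. Of 46 list medians, 45 moved by less than the members' median implied error under the limit of 0.5, 46 without a limit and 44 against DMSO at 24 h. Reg family lectins moved from -0.38 to 0.36 under the limit of 0.5, and Paneth cell genes and mitochondrially encoded genes moved against DMSO at 24 h. The sign changed for 5 lists under the limit of 0.5, for 3 without a limit and for 7 against DMSO at 24 h. No paired analysis was possible because the table holds comparisons and no value per sample, and for the same reason no replicate was left out. Without values per sample, a single deviating library in either group cannot be seen. An implied error rests on an assumed test, and a median error of 0.28 leaves log2 fold changes under about 0.55 below an unadjusted p of 0.05 for a typical well measured gene.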
